A study of Mus musculus with 28 samples.

Results

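Chemokines are small secreted proteins that direct the movement of cells, and their receptors are membrane proteins that mostly signal through G proteins. The set described here was chosen by name: genes called Ccl, Cxcl, Ccr or Cxcr with a number and at most 1 trailing letter, plus Cx3cl1, Cx3cr1 and Xcl1. It held 56 of the 22552 genes listed in every table: 24 CC ligands, 13 CXC ligands, the ligands Cx3cl1 and Xcl1, and 17 receptors. Some genes that the name rule reaches are not reported here, so the set does not hold every chemokine receptor. PolyA RNA-seq was run on mouse satellite cells, the muscle stem cells that express Pax7. KO stands for SIRT1mKO animals, in which Cre knocked into the Pax7 locus deletes the floxed exon 4 of Sirt1, and WT for wild-type animals, on the C57Bl/6 background. FI cells were freshly isolated by FACS and quiescent. Cul cells were proliferating in Ham's F-10 medium with 20% FBS and 12.5 ng/ml bFGF. Diff cells spent 24 hours in medium with 2% horse serum. The compared groups were KO_FI and WT_FI (3 libraries each), KO_Cul and WT_Cul (2 each), KO_Diff and WT_Diff (2 each), and, in a further table with libraries of its own, WT_Cul and WT_FI (2 each), 18 libraries in all. Libraries go by group and by the number (0, 1 or 2) their table carries. Summed over all exons, Sirt1 stood at 63.4, 37.6 and 44.3 CPM (a gene's fragments relative to library size, scaled by TMM within a table) in KO_FI and at 81.4, 50.6 and 47.4 CPM in WT_FI, a total that cannot check a deletion of 1 exon.

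Ligands of the CC class mainly attract monocytes, eosinophils and lymphocytes, and those of the CXC class include the neutrophil attractants Cxcl1, Cxcl2, Cxcl3 and Cxcl5 and the interferon-induced Cxcl9, Cxcl10 and Cxcl11. In muscle, chemokines are known for drawing leukocytes into injured tissue, and Cxcl12 for guiding myogenic cells. Many inflammatory chemokine genes are induced through NF-kB, and Cxcr7, listed in newer annotation as Ackr3, is an atypical receptor that binds Cxcl12 and Cxcl11 and signals through arrestins rather than G proteins.

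Total fragments were 27956211 to 65155855 a library in FI, 75564698 to 82450557 in Cul, 71321961 to 82605001 in Diff. The table of WT states had 23988723 to 31384139. Pax7 stood at 905, 1056 and 1022 CPM in KO_FI and at 1059, 832 and 863 CPM in WT_FI of the FI table. In WT_FI of the table of WT states it stood at 138 and 117 CPM, beside a summed level of 10 fibroblast markers of 20087 to 29124 CPM, against 5328 to 7158 CPM in WT_FI of the FI table. In the same 2 sets of WT_FI libraries, 8 pericyte and smooth muscle markers summed to 22543 to 30908 CPM and 3497 to 8453 CPM. In Diff, both libraries numbered 1 carried the marks of differentiated muscle (8 genes summing to 24046 CPM in KO and 10695 CPM in WT), while both libraries numbered 0, under the same label for medium, did not (178 CPM in KO, 72 CPM in WT). Cultured WT library 0 of the table of WT states held 2760 CPM of the same muscle genes, against 64.3 CPM in library 1. In the FI table, library 0 of each genotype was the deepest (65155855 fragments in KO, 54986021 in WT), with 8.11% and 8.18% of values not whole, against 2.43% to 2.82% in the other 4. Whether replicate libraries stem from different animals or cultures is not in the labels, and a p-value here therefore covers the spread among these libraries alone, which may be technical. In RNA from bulk cells, fewer cells of a type and less RNA per cell cannot be told apart.

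The CXC ligand genes Cxcl1, Cxcl2 and Cxcl3, which lie close together on mouse chromosome 5, are shown first. They were chosen with their values known, because among the 4 libraries of the table of WT states all 3 were highest in the same cultured one and because their promoters share letters. That order is not particular to them. Ccl2 (379 CPM), Ccl7 (134 CPM) and Cxcl5 (149 CPM) were also highest in that library, WT_Cul library 0. None of them is among the matches named below, but only 40 of the 56 members had a promoter window, and the others could not match. The windows run from 250 bases before to 50 bases after the transcript start in RefSeq (GRCm38.p6), and capitals mark GGGNNTTTCC, a pattern of NF-kB sites, on either strand.
Cxcl1 (chr5:90890995-90891294, plus strand): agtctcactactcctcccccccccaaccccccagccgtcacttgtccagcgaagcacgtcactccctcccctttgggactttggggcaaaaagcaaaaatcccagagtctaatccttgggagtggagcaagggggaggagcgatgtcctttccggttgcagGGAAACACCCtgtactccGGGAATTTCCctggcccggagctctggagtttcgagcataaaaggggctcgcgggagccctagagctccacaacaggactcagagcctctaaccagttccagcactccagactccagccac
Cxcl2 (chr5:90903649-90903948, plus strand): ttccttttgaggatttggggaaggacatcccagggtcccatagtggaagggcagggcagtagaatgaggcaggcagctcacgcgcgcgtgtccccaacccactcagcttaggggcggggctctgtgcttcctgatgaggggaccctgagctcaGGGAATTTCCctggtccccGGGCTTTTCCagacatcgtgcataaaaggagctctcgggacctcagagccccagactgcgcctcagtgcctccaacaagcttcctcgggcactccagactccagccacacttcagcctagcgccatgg
Cxcl3 (chr5:90785851-90786150, plus strand): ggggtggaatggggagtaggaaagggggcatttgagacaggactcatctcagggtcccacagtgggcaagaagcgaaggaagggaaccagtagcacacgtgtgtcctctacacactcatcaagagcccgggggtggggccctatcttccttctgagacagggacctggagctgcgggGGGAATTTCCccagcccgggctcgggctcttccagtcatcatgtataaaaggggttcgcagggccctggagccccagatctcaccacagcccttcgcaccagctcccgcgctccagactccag
Each window held the run GGGAATTTCC, beginning 71 bases before the start in Cxcl1, 97 bases in Cxcl2 and 73 bases in Cxcl3. Of 32851 RefSeq windows, 535 held GGGNNTTTCC (1.63%), and of the 40 members with a window, 6 did (15%): Ccl20, Ccl9, Ccr3, Cxcl1, Cxcl2 and Cxcl3. The narrower GGGANTTTCC, which the wider pattern contains, was in 135 windows (0.411%) and in those of Ccr3, Cxcl1, Cxcl2 and Cxcl3. These matches are a description of letters and not of bound sites.

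Of the 56 members, 49 had a fragment in at least 1 of the 18 libraries. The other 7 were CC ligands (Ccl19, Ccl21a, Ccl21b, Ccl21c, Ccl26, Ccl27b and Ccl28), at 0 fragments in every library. With 3 fragments as the limit that a count of 0 allows, that is at most 0.125 CPM in the shallowest library (counting error only). The Ccl21 and Ccl27 genes have near-identical copies, so their fragments may have been divided between copies or dropped. A further 7 members never passed 10 fragments in a library. Of the 17 receptors in the set, those other than Cxcr7 were low throughout. In FI cells of the FI table Cxcr2 (a receptor of neutrophil attractants) reached 10.5 CPM, Ccr2 (the receptor of Ccl2) 7.81 CPM and Ccr1 7.42 CPM at the highest.

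**Figure D1:**
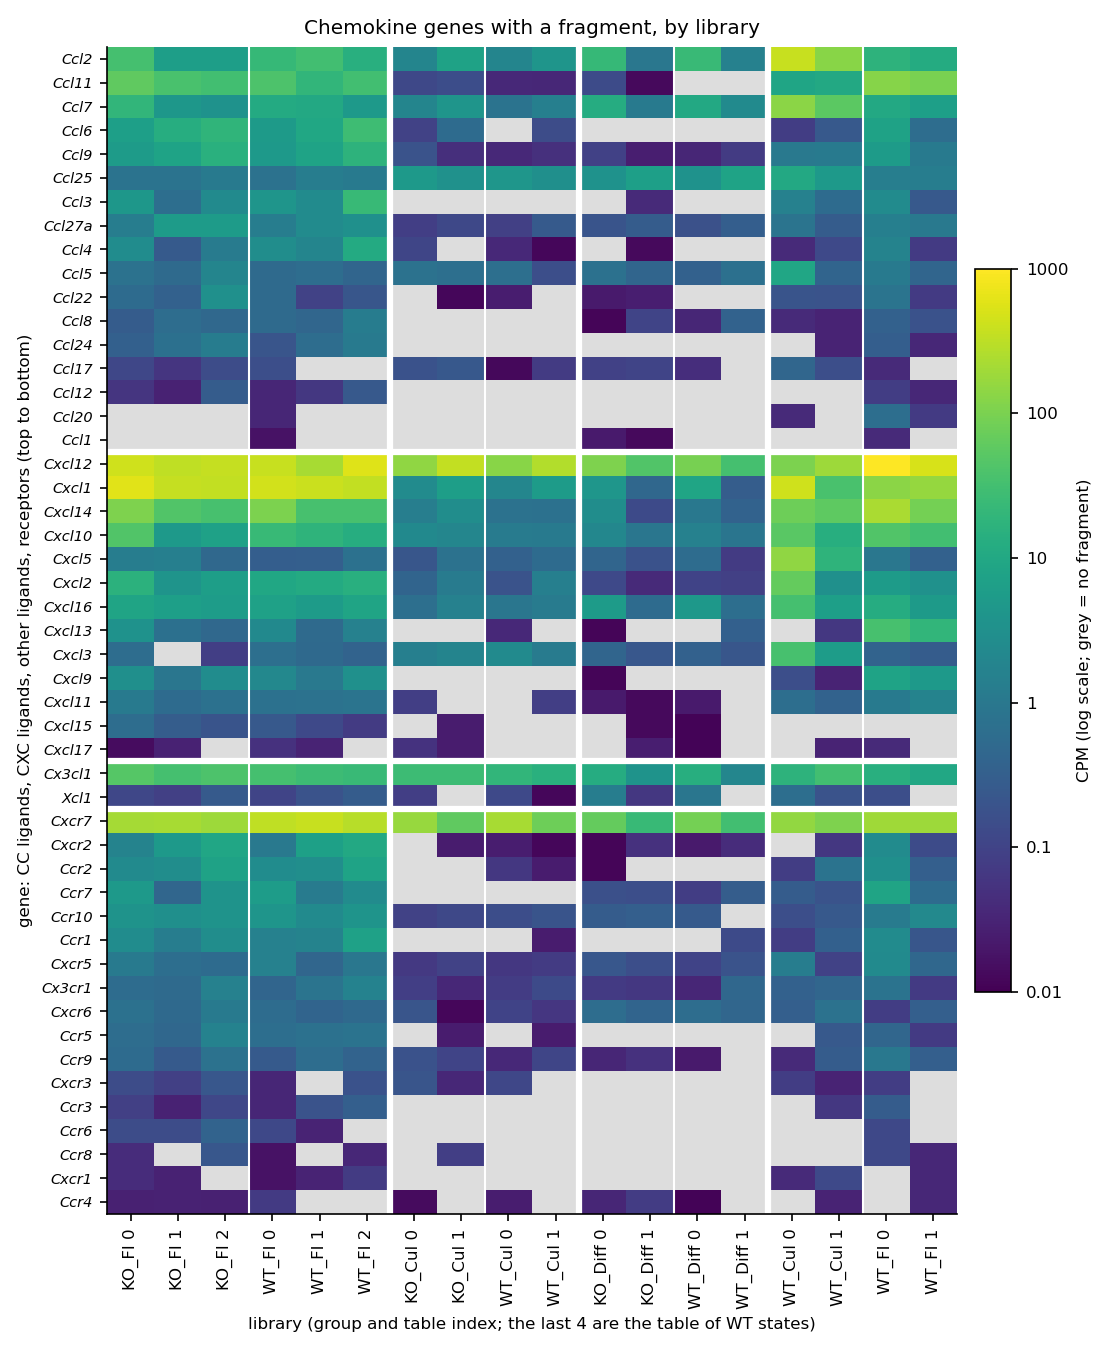
CPM of the 49 chemokine genes with a fragment (vertical axis, by class) in each of the 18 libraries (horizontal axis, by group), on a log colour scale with grey for 0 fragments. Cxcl12 and Cxcr7 are bright in every library, and Cxcl1 in the FI libraries and 1 cultured WT library.

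Per length of transcript, the most abundant members over all libraries were Cxcl1 (mean 226 FPKM), Cxcl12 (117), Cxcr7 (65.2), Ccl2 (60.0), Ccl11 (27.0), Cxcl14 (25.9), Ccl7 (25.2) and Cxcl10 (15.6). FPKM are deposited levels, fragments scaled to transcript length and library size by the authors within a table, so these means pool separate scalings. The means of Ccl2 and Ccl7 rest largely on WT_Cul of the table of WT states (573 and 188 FPKM for Ccl2, 205 and 83.2 FPKM for Ccl7). In WT_Cul of the Cul table Ccl2 had 3.06 and 6.44 FPKM and Ccl7 1.33 and 2.34 FPKM. The order differed between the FI and Cul tables, and also between sets of libraries of the same state. In WT_FI of the table of WT states Cxcl12 (428 and 215 FPKM) lay above Cxcl1 (166 and 201 FPKM). In WT_Cul of that table Cxcl1 had 524 and 44.1 FPKM and Cxcl12 38.3 and 58.0 FPKM. In FI cells of the FI table Cxcl1, which attracts neutrophils through Cxcr2, led with 742, 452 and 424 FPKM in KO and 555, 487 and 432 FPKM in WT. Cxcl12 had 139 to 174 FPKM in KO and 97.9 to 240 FPKM in WT there, and Cxcr7 70.0 to 84.6 FPKM in KO and 114 to 144 FPKM in WT, so their order was clear in KO and overlapped in WT. In cultured cells of the Cul table, Cxcl1 stood at 3.34 and 8.17 FPKM in KO and 2.50 and 7.34 FPKM in WT. There Cxcl12 had 49.8 and 120 FPKM in KO and 43.4 and 86.9 FPKM in WT, and Cxcr7 had 70.6 and 24.2 FPKM in KO and 90.0 and 32.5 FPKM in WT. The libraries numbered 0 and 1 put these genes in opposite orders in both genotypes, so neither led in Cul beyond the spread. Ccl11, an eosinophil attractant, had 20.8 to 63.8 FPKM in the FI table and at most 0.171 FPKM in the Cul table. The 56 genes together took 1640, 1106 and 1111 CPM in KO_FI and 1452, 1204 and 1492 CPM in WT_FI. In the Cul table they took 366 and 463 CPM in KO and 388 and 380 CPM in WT.

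In freshly isolated cells, no chemokine gene passed the test between KO and WT. The test used throughout is edgeR's quasi-likelihood test with Benjamini-Hochberg adjustment over all genes of a table and a threshold of 0.05, and it called 0 of 15146 genes (0%) in this comparison, with 621 at an unadjusted p under 0.05. DESeq2 called 118 genes, of which 1 was a member, Cxcr7. Enough fragments for testing were present for 36 members, and a member can pass that filter through 1 group alone. Their log2 fold changes had a median of 0.01 (range -2.0 to 2.21), beside -0.03 for all genes, and 18 of 36 were above 0. In 1 member every KO library lay higher than every WT library (5.57% of all genes), and in 1 every KO library lay lower (3.65% of all genes).

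The receptor among those was Cxcr7, with 214, 220 and 183 CPM in KO_FI (libraries 0, 1 and 2), against 334, 377 and 296 CPM in WT_FI. Every KO library lay below every WT library, at 206 ± 20.1 CPM in KO and 336 ± 40.6 CPM in WT (SD, n = 3 each), a log2 fold change of -0.71 (SE 0.14, edgeR adjusted p = 0.592). DESeq2 gave -0.72 with an adjusted p of 0.00162, and over the other settings the adjusted p was between 0.288 and 1.00. In Cul, Cxcr7 stood at 171 and 60.0 CPM in KO_Cul against 222 and 79.0 CPM in WT_Cul. In Diff it stood at 66.6 and 23.3 CPM in KO_Diff against 89.2 and 30.3 CPM in WT_Diff. Within every one of the 7 pairs of libraries with the same number it was lower in KO, the only one of 14 members tested in all 3 states for which that was so. Among all 13259 genes tested in the 3 tables, 205 (1.55%) were lower in KO in all 7 pairs and 253 (1.91%) were higher, and 0 of 14 members were higher in all. Between libraries 0 and 1 of Cul and Diff, Cxcr7 differed more than between genotypes, and the fits gave -0.38 (SE 0.68, edgeR adjusted p = 1.00) in Cul and -0.41 (SE 0.76, edgeR adjusted p = 1.00) in Diff. Leaving out 1 library in turn gave -1.34 to 0.55 in Cul and -1.37 to 0.58 in Diff, so the sign there held within pairs and not in every such fit. The ligand Cxcl12 gave 427, 325 and 356 CPM in KO_FI against 372, 219 and 564 CPM in WT_FI, which overlap.

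Cx3cl1, a membrane-bound chemokine that attracts cells with Cx3cr1 once it is shed, was the member without overlap and with KO higher. It had 49.1, 33.9 and 40.5 CPM in KO_FI, against 33.6, 26.6 and 24.9 CPM in WT_FI. The log2 fold change was 0.54 (SE 0.19, edgeR adjusted p = 1.00). In culture the KO libraries again lay above the WT libraries, at 26.7 and 26.4 CPM in KO_Cul against 19.5 and 14.9 CPM in WT_Cul (log2 0.63, SE 0.24, edgeR adjusted p = 1.00). In Diff it had 12.3 and 3.65 CPM in KO and 13.4 and 1.97 CPM in WT, and the groups overlapped. Its receptor Cx3cr1 was between 0.422 and 1.63 CPM in the FI table in both genotypes.

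**Figure D2:**
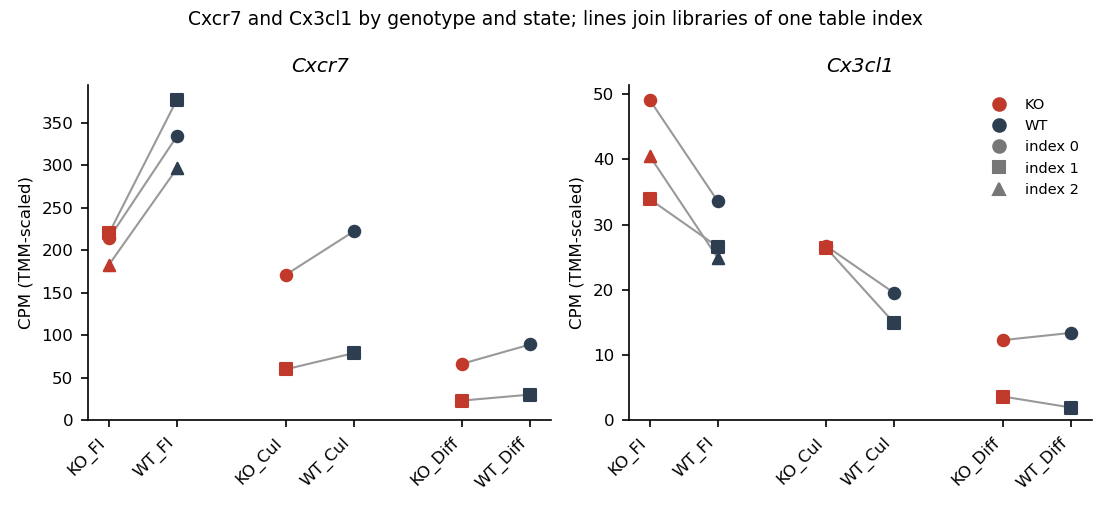
CPM of Cxcr7 (left) and Cx3cl1 (right) in each library of the FI, Cul and Diff tables, KO red and WT dark, with lines joining libraries of the same table number. Cxcr7 lies lower in KO on all 7 lines, and Cx3cl1 lies higher in KO in FI and Cul.

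The other FI members with the smallest p-values were mostly ligands, and all of them overlapped between genotypes. Cxcl5, a neutrophil attractant, had 1.34, 1.42 and 0.485 CPM in KO_FI against 0.317, 0.320 and 0.724 CPM in WT_FI (log2 1.27, SE 0.58, edgeR adjusted p = 1.00). Ccl22, which attracts Ccr4-bearing lymphocytes, had 0.553, 0.355 and 3.20 CPM in KO_FI against 0.528, 0.0961 and 0.217 CPM in WT_FI, so that 1 KO library held the difference. Ccl3, an inflammatory attractant of macrophages, had 4.41, 0.650 and 2.45 CPM in KO_FI against 4.08, 2.53 and 23.9 CPM in WT_FI. Its close relative Ccl4 had 2.71, 0.266 and 1.20 CPM in KO_FI against 2.80, 1.86 and 11.5 CPM in WT_FI. Both were highest in WT library 2. That library also had the highest summed level of 9 neutrophil markers, 1589 CPM, against 259 to 670 CPM in KO_FI and 366 to 466 CPM in the other WT libraries. Its 15 macrophage markers summed to 456 CPM, against 208 to 340 CPM in KO_FI and 196 to 197 CPM in the other WT libraries, and the part of these cells in the values was not tested. Ccl5, Ccl11, Ccl27a and Cxcr6 had log2 fold changes of 0.99, 0.51, 0.80 and 0.65, all with an edgeR adjusted p of 1.00.

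Several abundant FI ligands varied between libraries of the same genotype, and not always by library number. Cxcl14, a homeostatic ligand, had 106, 43.8 and 34.8 CPM in KO_FI and 105, 34.8 and 34.3 CPM in WT_FI, so library 0 was high in both. Cxcl10 had 43.4, 4.94 and 7.33 CPM in KO_FI and 23.0, 17.9 and 12.9 CPM in WT_FI. Ccl2, the main monocyte attractant, had 33.0, 6.30 and 6.39 CPM in KO_FI and 22.2, 31.0 and 14.1 CPM in WT_FI. Its neighbour in function Ccl7 had 19.5, 4.49 and 3.48 CPM in KO_FI and 11.4, 10.2 and 4.99 CPM in WT_FI. Cxcl1 had 609, 369 and 347 CPM in KO_FI and 448, 401 and 354 CPM in WT_FI. None of these 5 separated the genotypes. Library 0 of both genotypes lay above the other 4 libraries for 9 of 36 members (14.8% of all genes) and below them for 6 (20.2% of all genes). Cxcr2 was among the low ones, at 1.72 CPM in KO library 0 and 1.06 CPM in WT library 0, against 5.17 to 10.5 CPM in the others. Without both libraries numbered 0, 1 gene and no member was called in FI by edgeR, and the log2 fold change of Cxcl10 was -1.32 in place of 0.05 and that of Ccl7 was -0.92 in place of 0.05.

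In proliferating cells, no chemokine gene passed the test between KO and WT either. edgeR called 0 of 13963 genes (0%), with 112 at an unadjusted p under 0.05, and DESeq2 called 3 genes and no member. Of 17 members tested, 13 had an estimate above 0 (53.2% of all genes did), with a median log2 fold change of 0.31 beside 0.02 for all genes. In all, 6 members lay higher in both KO libraries than in both WT libraries (11.8% of all genes did), and 1 lay lower (11.1% of all genes). The higher ones were Cx3cl1 and 5 ligands at low levels. Cxcl14 had 1.39 and 2.83 CPM in KO_Cul against 0.756 and 0.718 CPM in WT_Cul (log2 1.52, SE 0.55, edgeR adjusted p = 1.00). Ccl7 had 1.88 and 4.03 CPM in KO_Cul against 0.820 and 1.42 CPM in WT_Cul (log2 1.40, SE 0.59, edgeR adjusted p = 1.00). Cxcl10 had 2.35 and 2.01 CPM in KO_Cul against 1.19 and 1.10 CPM in WT_Cul (log2 0.93, SE 0.42, edgeR adjusted p = 1.00). These 3 were below 5 CPM in every Cul library, and none was called by either tool.

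Ccl17 and Ccl5 made up the rest, Ccl17 with 0.179 and 0.239 CPM in KO_Cul against 0.0128 and 0.0730 CPM in WT_Cul, and Ccl5 with 0.773 and 0.670 CPM in KO_Cul against 0.666 and 0.158 CPM in WT_Cul. Ccr10, the receptor of Ccl27 and Ccl28, was the one that lay lower, at 0.0966 and 0.120 CPM in KO_Cul against 0.154 and 0.195 CPM in WT_Cul, from 7 to 16 fragments a library. Ccl2 had 1.92 and 7.71 CPM in KO_Cul and 1.91 and 3.97 CPM in WT_Cul. Cxcl12 had 148 and 342 CPM in KO_Cul and 130 and 265 CPM in WT_Cul, and Cxcl1 had 2.54 and 6.36 CPM in KO_Cul and 1.94 and 5.60 CPM in WT_Cul. All 3 were higher in library 1 than in library 0 in both genotypes. Ccl6 had a log2 fold change of 2.12 (SE 1.62), from 0.0966 and 0.550 CPM in KO_Cul and 0 and 0.146 CPM in WT_Cul. Summed markers of fibroblasts were 290 and 348 CPM in KO_Cul and 260 and 326 CPM in WT_Cul. Col3a1 (means of 131 CPM in KO_Cul and 121 CPM in WT_Cul) and Cd34 (134 and 157 CPM) held most of these sums. Of the 9 fibroblast markers tested, 8 had an estimate above 0 (53.2% of all genes did), with a median log2 fold change of 1.73, and 0 were called. Col1a1 was at 5.67 to 5.96 CPM in KO_Cul and 1.38 to 2.11 CPM in WT_Cul, and Col1a2 at 17.7 to 53.1 CPM in KO_Cul and 4.70 to 13.9 CPM in WT_Cul. Pericyte markers summed to 136 and 135 CPM in KO_Cul and 114 and 59.2 CPM in WT_Cul, and those of macrophages to 8.31 and 9.94 CPM in KO_Cul and 5.50 and 11.1 CPM in WT_Cul. Neutrophil markers stood at 1.13 and 1.11 CPM in KO_Cul, against 0.141 and 0.487 CPM in WT_Cul, with 3 to 5 of 9 genes above 0, and the part of any of these cells in the values was not tested.

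In differentiation medium the library number went with larger differences than the genotype. edgeR called 0 of 14482 genes (0%) between KO and WT, with 27 at an unadjusted p under 0.05, DESeq2 called 0, and of the 19 members tested 0 had an unadjusted p under 0.05. The median log2 fold change of the members was 0.07, beside -0.01 for all genes. The receptor Ccr10 lay higher in KO without overlap (6.39% of all genes did), from 24 and 25 fragments in KO_Diff against 23 and 0 in WT_Diff, and 0 members lay lower (6.85% of all genes). For 13 of 19 members library 0 of both genotypes lay above library 1 of both (35.3% of all genes did), and for 2 below (36.1% of all genes).

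Ccl2 had 22.1 and 0.958 CPM in KO_Diff and 24.8 and 1.54 CPM in WT_Diff (libraries 0 and 1). Ccl7 had 12.5 and 1.13 CPM in KO_Diff and 10.4 and 2.51 CPM in WT_Diff. Cxcl1 had 4.27 and 0.459 CPM in KO_Diff and 8.59 and 0.293 CPM in WT_Diff. Over both genotypes the mean of library 0 was 18.8 times that of library 1 for Ccl2, 6.29 times for Ccl7 and 17.1 times for Cxcl1. Cxcl16, a membrane-bound ligand of Cxcr6, had 5.48 and 0.564 CPM in KO_Diff and 4.60 and 0.646 CPM in WT_Diff. Xcl1, a lymphocyte attractant of the C class, had 1.30 and 0.0656 CPM in KO_Diff and 0.922 and 0 CPM in WT_Diff. Cxcl12 (107 and 44.8 CPM in KO_Diff, 93.6 and 34.1 CPM in WT_Diff) and Cxcr7 followed the same order. Cxcr5, the receptor of Cxcl13, was at 0.102 to 0.232 CPM and overlapped between genotypes. Cxcl10 and Cxcl14 also were higher in library 0, with 2.10 and 0.918 CPM in KO_Diff and 1.55 and 0.866 CPM in WT_Diff for Cxcl10. Ccl25, a ligand of Ccr9 best known from thymus and gut, was the opposite, at 3.49 and 6.64 CPM in KO_Diff and 3.56 and 8.05 CPM in WT_Diff, as was Ccl27a at 0.171 to 0.308 CPM. These orders ran beside the muscle markers given above, which were high in both libraries numbered 1 (Myog 3619 CPM in KO and 2015 CPM in WT). The markers were low in both numbered 0 (Myog 149 CPM in KO and 61.2 CPM in WT). In WT_Cul of the table of WT states, library 0 held the higher muscle sum (2760 against 64.3 CPM). There Ccl2, Ccl7, Cxcl1, Cxcl16, Xcl1, Cxcr7, Cxcl10 and Cxcl14 were higher in library 0, the reverse of their relation to these markers in Diff. Cxcl12, Ccl25 and Ccl27a kept that relation. The part of the differentiation stage in these orders was not tested. Fibroblast markers summed to 812 and 600 CPM in KO_Diff and 602 and 317 CPM in WT_Diff.

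**Figure D3:**
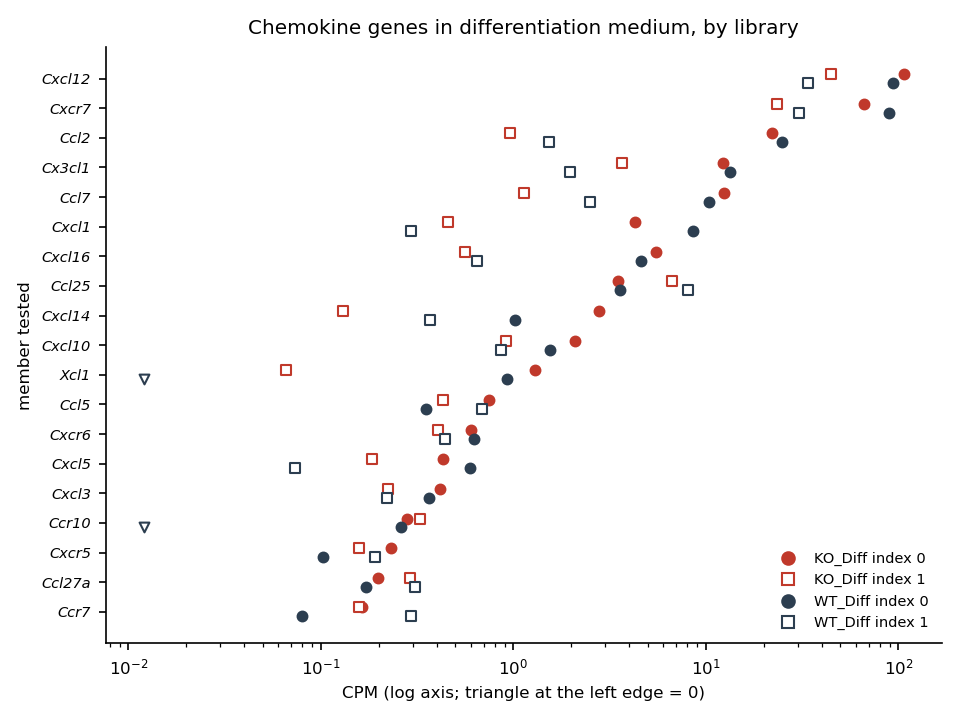
CPM (log axis) of the 19 members tested in differentiation medium, KO red and WT dark, filled circles for library 0 and open squares for library 1. The circles lie right of the squares for 13 members in both genotypes, and left of them for Ccl25 and Ccl27a.

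Between cultured and freshly isolated WT cells, chemokine genes moved in both directions. In the table of WT states edgeR called 10 of 27 members tested (37%), where 4200 of 14680 genes were called (28.6%). Of these, 5 members rose in WT_Cul (12.6% of all genes did) and 5 fell (16% of all genes). The median log2 fold change of the members was -0.58, beside 0.06 for all genes. A member present in 1 state only passes the filter through that state, so these counts describe the members that passed. Leaving out 1 library in turn gave 7 to 14 members called, the lowest without WT_FI library 0.

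Those that rose were ligands of myeloid cells and Ccl25. Ccl2 had 379 and 127 CPM in WT_Cul, against 16.7 and 12 CPM in WT_FI, a log2 fold change of 4.14 (SE 0.67, edgeR adjusted p = 0.0167). Ccl7 had 134 and 55.5 CPM in WT_Cul, against 10.4 and 6.76 CPM in WT_FI (3.46, SE 0.59, edgeR adjusted p = 0.0178). Both lay above WT_FI in both cultured libraries, and more so in library 0. Cxcl5 had 149 and 18.1 CPM in WT_Cul, against 0.956 and 0.356 CPM in WT_FI (6.99, SE 1.33, edgeR adjusted p = 0.0216). Cxcl3 had 35.7 and 5.76 CPM in WT_Cul, against 0.399 and 0.285 CPM in WT_FI (5.91, SE 1.11, edgeR adjusted p = 0.0212). Ccl25 had 10.4 and 5.03 CPM in WT_Cul, against 1.35 and 1.32 CPM in WT_FI (2.52, SE 0.60, edgeR adjusted p = 0.0348), and lost its call without either WT_FI library (adjusted p = 0.176 and 0.201).

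For Cxcl1 and Cxcl2, 1 library decided the direction. Cxcl1 had 429 and 36.7 CPM in WT_Cul, against 134 and 162 CPM in WT_FI, so the cultured libraries lay on either side of the fresh ones. Its log2 fold change was 0.65 (SE 1.05, edgeR adjusted p = 0.667), and it was -2.05 without WT_Cul library 0 and 1.52 without WT_Cul library 1. Each of those fits left 1 cultured library and so holds no spread among cultured libraries. Cxcl2 had 66.7 and 3.26 CPM in WT_Cul, against 5.54 and 3.31 CPM in WT_FI (2.98, SE 1.35, edgeR adjusted p = 0.151). All 3 genes whose promoters are printed above were thus higher in cultured library 0, which held 2760 CPM of muscle markers, than in cultured library 1. Cxcl16 (34.1 and 6.71 CPM) and Ccl5 (9.24 and 0.411 CPM) had the same order in WT_Cul.

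Those that fell were Ccl11, Cxcl12, Cxcl13, Cxcl9 and the receptor Ccr10. Ccl11 had 8.80 and 10.4 CPM in WT_Cul, against 122 and 100 CPM in WT_FI (-3.53, SE 0.37, edgeR adjusted p = 0.00988). Cxcl12 had 104 and 185 CPM in WT_Cul, against 983 and 491 CPM in WT_FI (-2.35, SE 0.56, edgeR adjusted p = 0.0346), and was not called without WT_FI library 0 (adjusted p = 0.169). Cxcl13, which attracts B cells, had 0 and 2 fragments in WT_Cul, against 881 and 543 fragments in WT_FI. The ratio of cultured to fresh was 0.00132 (95% exact interval 0.00016 to 0.00478, counting error only; edgeR adjusted p = 0.0103). Cxcl9 had 0.160 and 0.0316 CPM in WT_Cul, against 7.85 and 4.88 CPM in WT_FI (-6.05, SE 0.92, edgeR adjusted p = 0.0153). Ccr10 had 0.160 and 0.253 CPM in WT_Cul, against 1.20 and 2.28 CPM in WT_FI (-3.03, SE 0.71, edgeR adjusted p = 0.0338), and was not called without either WT_FI library (adjusted p = 0.0679 and 0.261). In all 5 genes both cultured libraries lay below both fresh ones.

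These ran beside lower levels of genes listed as markers of other cells. The 10 fibroblast markers summed to 1083 and 1799 CPM in WT_Cul, against 29124 and 20087 CPM in WT_FI. The 8 pericyte and smooth muscle markers summed to 2151 and 2191 CPM in WT_Cul, against 22543 and 30908 CPM in WT_FI. The 12 endothelial markers summed to 65.6 and 111 CPM against 640 and 732 CPM, and the 15 macrophage markers to 17.9 and 28.1 CPM against 272 and 217 CPM. B cell markers summed to 9.80 and 4.56 CPM in WT_Cul and 69.8 and 15.8 CPM in WT_FI. Such sums can rest on few genes. In WT_FI of the FI table, Blnk alone held 82 to 108 CPM of a B cell sum of 118 to 134 CPM. Col3a1 held 2395 to 2729 CPM there, of a fibroblast sum of 5328 to 7158 CPM. Whether satellite cells express the listed genes was not tested. The part of these cells in the values was not tested. Among members that were not called, Ccl6 (0.0800 and 0.253 CPM in WT_Cul, against 7.49 and 0.605 CPM in WT_FI) and Ccr7, a receptor that guides lymphocytes and dendritic cells (0.280 and 0.190 CPM in WT_Cul, against 8.21 and 0.570 CPM in WT_FI), were high only in WT_FI library 0. That library held 621 CPM of neutrophil markers, against 23.4 CPM in WT_FI library 1. Cxcr7 had 152 and 106 CPM in WT_Cul, against 195 and 189 CPM in WT_FI (-0.58, SE 0.36, edgeR adjusted p = 0.272), Cxcl14 had 80.4 and 57.0 CPM against 229 and 90.2 CPM (-1.22, SE 0.55, adjusted p = 0.149), and Cxcl10 had 53.6 and 13.6 CPM against 43.6 and 30.2 CPM, which overlap.

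**Figure D4:**
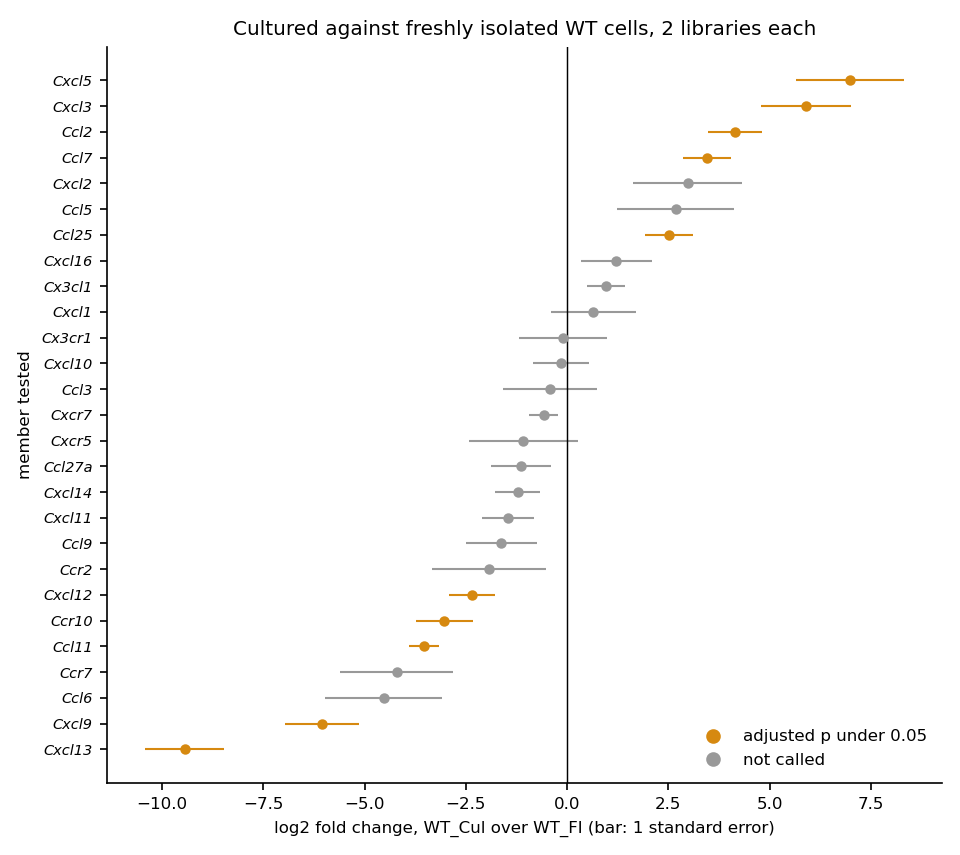
Log2 fold change of WT_Cul over WT_FI with 1 standard error for the 27 members tested in the table of WT states, coloured where the adjusted p was under 0.05. Cxcl5, Cxcl3, Ccl2, Ccl7 and Ccl25 lie to the right and Cxcl12, Ccr10, Ccl11, Cxcl9 and Cxcl13 to the left.

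WT_Cul and WT_FI were also measured in other libraries, those of the Cul and FI tables, which were normalized separately, so their levels are set side by side here without a test. Of the 10 called members, 6 lay on the same side there without overlap, where 94.1% of all genes called in the table of WT states did (3945 of 4191). They were Ccl25 (4.28 and 3.12 CPM in WT_Cul, against 0.774, 1.31 and 1.16 CPM in WT_FI), Cxcl3, Ccl11, Cxcl13, Ccr10 and Cxcl9. Cxcl9 was at 0 fragments in both WT_Cul libraries, which allows up to 0.0387 CPM by 3 fragments, against 2.16, 1.06 and 3.18 CPM in WT_FI. Cxcl12 overlapped, at 130 and 265 CPM in WT_Cul and 372, 219 and 564 CPM in WT_FI. Ccl2 and Ccl7 lay on the opposite side without overlap, 2 of 10 members, where 0.692% of all those genes did (29 of 4191). Ccl2 had 1.91 and 3.97 CPM in WT_Cul of the Cul table, against 22.2, 31.0 and 14.1 CPM in WT_FI of the FI table, a log2 ratio of means of -2.93 where the table of WT states gave 4.14. The cultured libraries of the Cul table thus lay below the fresh ones for Ccl2. Ccl7 had 0.820 and 1.42 CPM in WT_Cul, against 11.4, 10.2 and 4.99 CPM in WT_FI, -2.98 where the table of WT states gave 3.46. Cxcl5 had 0.359 and 0.548 CPM in WT_Cul and 0.317, 0.320 and 0.724 CPM in WT_FI, which overlap. WT_FI values of Ccl2 and Ccl7 were alike in both sets, and it was the cultured libraries that stood apart, for Ccl2 by 127 to 379 CPM in one set and 1.91 to 3.97 CPM in the other. Cxcl1 was lower in culture there, at 1.94 and 5.60 CPM in WT_Cul against 448, 401 and 354 CPM in WT_FI. Fibroblast markers summed to 260 and 326 CPM in WT_Cul of the Cul table, against 1083 and 1799 CPM in WT_Cul of the table of WT states. Pericyte markers summed to 114 and 59.2 CPM against 2151 and 2191 CPM, and endothelial markers to 13.6 and 15.7 CPM against 65.6 and 111 CPM. The part of these cells in the difference was not tested.

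**Figure D5:**
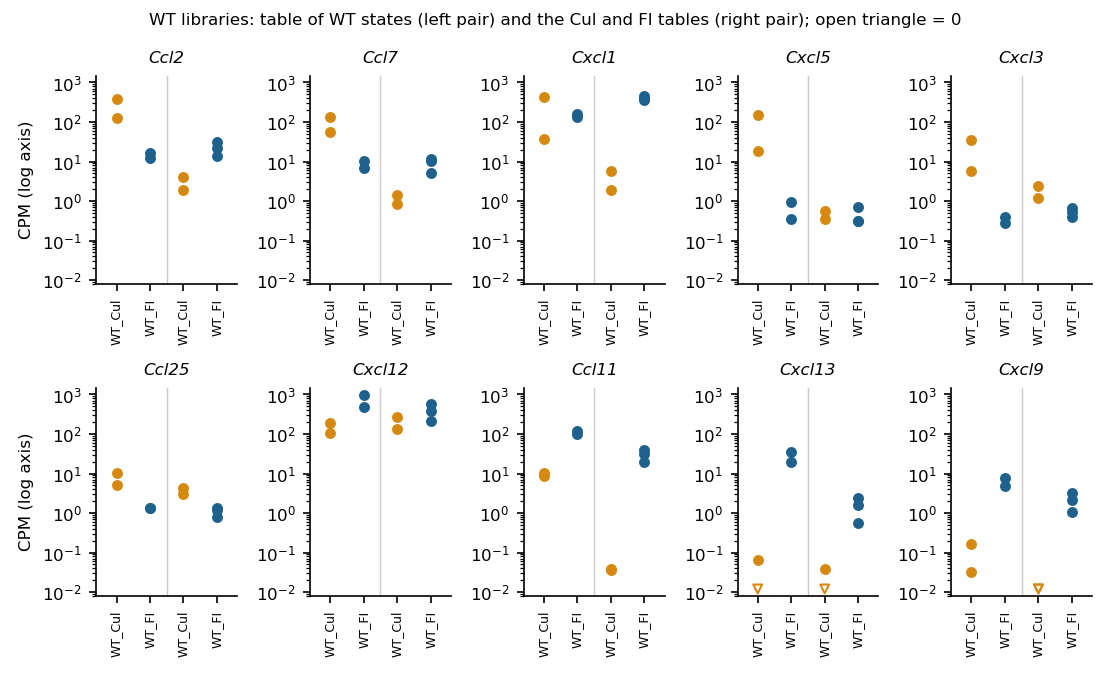
CPM (log axis) of 10 members in each WT library, WT_Cul orange and WT_FI blue, with the table of WT states as the left pair of each panel, the Cul and FI tables as the right pair and an open triangle for 0. Ccl2 and Ccl7 lie higher in culture in the left pair and lower in the right pair, and Ccl11, Cxcl13 and Cxcl9 lie lower in culture in both.

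The genes around the chemokines were described from 5 lists chosen with earlier results known. Among KO comparisons, none of their members was called by edgeR. The smallest p in FI was that of Hpse, heparanase, which trims the heparan sulphate chains that hold chemokines: 1.94 ± 0.396 CPM in KO_FI and 13.4 ± 2.78 CPM in WT_FI (SD, n = 3 each; log2 -2.78, edgeR adjusted p = 0.166). Rgs2, a brake on G protein signalling, had 62.7 ± 6.63 CPM in KO_FI and 101 ± 3.59 CPM in WT_FI (-0.69, edgeR adjusted p = 0.420), and Arrb1, an arrestin, 178 ± 17.5 CPM in KO_FI and 121 ± 8.61 CPM in WT_FI (0.56, edgeR adjusted p = 0.592). Median log2 fold changes of the 5 lists lay between -0.26 (NF-kB and cytokine) and 0.08 in FI, between -0.09 and 0.14 in Cul, and between -0.53 and 0.04 in Diff.

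Between WT_Cul and WT_FI in the table of WT states, the interferon list had 11 of 15 tested genes lower and 0 higher, where 16% of all genes were lower and 12.6% higher, with a median log2 fold change of -2.21 beside 0.06 for all genes. The macrophage, endothelial, fibroblast and pericyte markers given above were lower in WT_Cul too, and their part in the values was not tested. The transcription factor Irf1 fell by 3.23 on the log2 scale (SE 0.36, edgeR adjusted p = 0.0104) and Irf7 by 4.20 (adjusted p = 0.0125), while the receptor chains Ifngr1 (-0.54, adjusted p = 0.302) and Ifngr2 (0.42, adjusted p = 0.441) were not called. Of the NF-kB and cytokine list, 2 of 22 rose and 4 fell (median -0.15), shares near the 12.6% and 16% of all genes. Zfp36, which destabilises cytokine transcripts, had 32.2 and 38.3 CPM in WT_Cul at the lowest and highest, against 1580 and 2172 CPM in WT_FI (-5.73, edgeR adjusted p = 0.00962), and Nfkbiz fell by 3.27, Tnfaip3 by 1.72 and Myd88 by 1.32. Nfkb2 rose by 1.87 (SE 0.35, edgeR adjusted p = 0.0201) and Tnfrsf1b by 1.96 (SE 0.52, edgeR adjusted p = 0.0456).

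Of chemokine family genes outside the name rule, 1 of 8 tested rose, the Xcl1 receptor Xcr1 (4.47, edgeR adjusted p = 0.0219), and 4 fell. Of all genes, 12.6% rose and 16% fell. The 4 family genes that fell were the scavenging or atypical receptors Ccrl2 (-4.60, adjusted p = 0.00962), Ccrl1 (-4.98, adjusted p = 0.0137) and Darc (-3.67, adjusted p = 0.0373), and the chemerin receptor Cmklr1 (-2.56, adjusted p = 0.0363). Of genes that process or bind chemokines, 2 of 14 rose and 3 fell, near the 12.6% and 16% of all genes. Those that rose were Cd44, a hyaluronan receptor, with 943 to 1759 CPM in WT_Cul against 117 to 118 CPM in WT_FI (3.53, edgeR adjusted p = 0.0142), and the cytokine Mif (4.43, adjusted p = 0.0276). Those that fell were Dpp4, a protease that trims Cxcl12 (-6.71, adjusted p = 0.0110), the metalloproteinase Mmp2 (-2.68, adjusted p = 0.0164) and Cd74, which binds Mif (-4.71, adjusted p = 0.0349). Of the signalling list, 1 of 21 rose (Grk6, 1.33, adjusted p = 0.0427) and 7 fell, where 12.6% of all genes rose and 16% fell. Among the 7 were Rgs2 (-4.14, adjusted p = 0.00962), Arrb1 (-3.13, adjusted p = 0.0158) and Prex1 (-1.43, adjusted p = 0.0320). All adjusted p-values here are from edgeR. Dpp4, Cd74, Dock2 and Rac2 are also expressed by fibroblasts or leukocytes, whose markers were lower in WT_Cul as given above, and their part was not tested.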

How the data were processed

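The deposited tables give each gene in each library in the layout of Cuffdiff output, per the file headers. They hold raw fragments, which are estimated counts, and FPKM scaled by the authors within each table. Bowtie, TopHat, SICER and Cuffdiff and the build mm9 are listed in the submitters' processing notes, with no version or role (not given in the sources used here). The condition A was matched to Cul by elimination. The table's library number is not the labels' replicate number. The 10 ChIP and input samples were not analysed here, and some genes are not reported here. The members and gene lists were chosen with earlier results of these data known.

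Genes with a status other than OK were left out. Estimated counts were rounded and fitted per table with edgeR 4.0.16 (quasi-likelihood, robust, TMM, filterByExpr) in R 4.3.3, tested on simulated data, with Benjamini-Hochberg adjustment over all genes. Alternatives used DESeq2 1.42.0, RLE factors, library totals, no filter, limma 3.58.1 on log2(FPKM + 1) and log2(FPKM + 0.1), a block for library number, and libraries left out. Same-numbered FI libraries deviated together across genotypes (correlations 0.877, 0.731 and 0.563). KO_FI library 2 correlated more with WT_FI library 1 (0.596) than with WT_FI library 2, so the number does not clearly pair libraries 1 and 2. The main fits have no term for the number. Between libraries of a group the counts differed by a chi-square of at least 27.92 per degree of freedom, so none was a copy. Named members were those called, the 10 with the smallest p per comparison and the 8 with the highest mean FPKM. Others named, such as Cxcl2, Cxcl16, Cxcr2, Ccr1, Ccr2, Ccr7 and Cx3cr1, were chosen after their values were seen. Of lists, those called and up to 4 others with the smallest p were eligible. Strand use in counting is not stated. Cxcl10, Cxcl11 and Cxcl16 have fragments that are not whole and are uncertain.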

Additional observations from a re-analysis of the deposited data

Results flagged for a closer look

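In the libraries of the table of WT states the cultured cells lay above the fresh ones for Ccl2, Ccl7 and Cx3cl1, with log2 ratios of means of 4.14, 3.46 and 0.96 (WT_Cul over WT_FI). In the libraries of the Cul and FI tables every cultured library lay below every fresh one, with -2.93 for Ccl2, -2.98 for Ccl7 and -0.72 for Cx3cl1. The difference between these sets was not tested, because the tables were normalized separately.

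Ccr10 lay lower in both KO libraries of Cul (log2 fold change -0.68, KO_Cul over WT_Cul) and higher in both KO libraries of Diff (1.18, KO_Diff over WT_Diff). The value in Diff comes from WT library 1 at 0 fragments, and without that library it was 0.21. The gene has at most 25 fragments a library in these tables, and the difference was not tested.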

How the results depend on the processing

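The alternatives of library totals without TMM and of both FI libraries numbered 0 left out, were chosen after seeing the data. In FI, edgeR called 0 genes, DESeq2 118 genes with 1 member (Cxcr7, -0.72), and the fit without both libraries numbered 0 called 1 gene. In Cul, 0 genes became 3 with DESeq2 and 3 with the replicate block. In Diff, 0 became 147 genes with the block. Between WT_Cul and WT_FI, the 4200 genes called were 5763 with DESeq2, 6176 with the block and 2063 to 8050 without 1 library in turn. Members called there were 13, 12 and 7 to 14. The block changed 2 member calls, both between WT_Cul and WT_FI, where Cxcl14 (-1.09, adjusted p = 0.0448) and Ccr7 (-3.35, adjusted p = 0.0361) were called with it. Same-numbered libraries correlated at 0.837 in Cul, 0.825 in Diff and 0.472 between WT states, and share only a number. With 2 libraries a group, both pairs give the same correlation by construction.

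Signs turned for members that were not called, and the cause was not tested. In FI, leaving out both libraries numbered 0 gave -0.068 for Cxcl1, -0.92 for Ccl7 and -1.32 for Cxcl10. The block gave 0.036 for Cxcl12, -0.29 for Ccl7 and -0.56 for Cxcl10, and limma on log2(FPKM + 0.1) and log2(FPKM + 1) gave -0.31 and -0.27 for Ccl7 and -0.58 and -0.52 for Cxcl10. In Diff, limma gave -0.43 and -0.30 and the block -0.42 for Ccl7. Between WT_Cul and WT_FI, limma gave -0.27 and -0.26 and the block -0.23 for Cxcl1.

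Without 1 library in turn, log2 fold changes in FI ran from -0.16 to 0.29 for Cxcl1, -0.35 to 0.32 for Cxcl12, -0.57 to 0.84 for Cxcl14, -1.15 to 0.44 for Ccl7 and -1.54 to 0.50 for Cxcl10. In Cul they ran from -0.62 to 1.37 for Ccl2, -0.42 to 0.91 for Cxcl12, -1.34 to 0.55 for Cxcr7 and -0.57 to 1.20 for Cxcl1. In Diff they ran from -2.40 to 2.01 for Cxcl14, -1.37 to 0.58 for Cxcr7, -3.28 to 3.01 for Cxcl1, -0.40 to 0.82 for Cxcl10, -0.52 to 1.17 for Cxcl12, -0.70 to 0.50 for Ccl25, -2.80 to 8.73 for Xcl1, -0.26 to 0.73 for Ccl5, -3.79 to 2.92 for Ccl2 and -2.53 to 1.45 for Ccl7. Between WT_Cul and WT_FI they ran from -2.05 to 1.52 for Cxcl1 and -1.47 to 0.53 for Cxcl10. Where 1 library was left in a group, it was assumed to vary like the other group. Of values for named members, 219 of 240 in FI, 137 of 144 in Cul, 123 of 144 in Diff and 154 of 168 between WT states kept their direction and their side of the threshold. Depth limits members with few fragments in every library of a table. Those that did not pass the filter were not tested, which does not show that their groups are alike.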
